A study of Mus musculus with 18 samples.

Results

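The genes described here are 10 members of the death receptor and BCL2 families in the mouse: the receptors Tnfrsf12a, Fas, Tnfrsf10b and Tnfrsf1a, the guardians Bcl2l1 and Mcl1, the effector Bax, and the BH3-only genes Bbc3, Pmaip1 and Bid. They were chosen by name, with earlier results of these data known. Each was read from 1 probe set, the one that averaged highest across the 18 arrays among those annotated to that gene alone. Such a set was found for 9 of the 10 genes, out of 18193 genes measured this way in the whole series. Bax has no such set in the annotation used and was not analysed here. Tnfrsf10b, the mouse receptor for TRAIL, lay at the lowest value of the table, 2.21, in its 2 probe sets on all 18 arrays and was not tested. The other 8 genes passed the filter on low values in both tissues. That filter is the array median (2.36 to 2.43), which lies close to the lowest value, so passing it does not by itself show expression.

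Death receptors are cell surface proteins of the TNF receptor family whose ligands can start a caspase cascade inside the cell. In hepatocytes, which depend on the mitochondrial amplification of that signal, caspase-8 cuts Bid, and cut Bid opens the mitochondrial outer membrane through Bax and Bak1. The guardians Bcl2l1 (Bcl-xL) and Mcl1 hold the effectors and the BH3-only proteins in check, and loss of either from hepatocytes is known to cause spontaneous hepatocyte death in mice. Bbc3 (PUMA) and Pmaip1 (NOXA) are BH3-only genes known as transcriptional targets of p53.

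Male C57BL6 mice were injected intraperitoneally with 4.5 g per kg of D-galactosamine (GalN), a hexosamine toxic to hepatocytes, and were examined 24 h or 48 h later. Sham mice received saline and were examined at 24 h, so that no sham group exists at 48 h and the 48 h comparisons with sham also span a different time after injection. Liver and kidney were perfused in place before RNA was taken, and each of the 6 groups of tissue and treatment holds 3 arrays, lettered A, B and C. The wording on RNA from 3 mice can be read as pooling, so p-values measure only the spread between these arrays. In bulk tissue RNA, fewer cells of a type and less RNA per cell cannot be told apart.

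Values are log2 expression after gcRMA, a background correction and normalization for Affymetrix arrays, and a difference of 1 is a doubling. Array medians ran from 2.36 to 2.43, and the correlation between arrays of a group from 0.983 to 0.998. The number of arrays limits the precision. Hepatocyte markers were well above the lowest value in every liver group, with a summed level of 18.09 to 18.48 (log2 of the sum). In kidney their sum was 16.24 to 16.69 and 1 of 7, Tat, was at the floor. Proximal tubule markers summed to 16.22 to 16.52 in kidney, where 0 of 7 were at the floor. A gene was called when limma's two-sided test over all genes gave a Benjamini-Hochberg adjusted p under 0.05.

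Upstream sequence was available for 8 of the 10 genes, in 12 windows of 250 bases before a RefSeq start site (GRCm38.p6). The windows of the 4 genes that were called in liver at 24 h are shown, because these genes rose together. Capitals mark GC boxes (GGGCGG on either strand) in Tnfrsf12a, Mcl1 and Bid, and a match to the NF-kB consensus in Bcl2l1. The windows are chr17:23677450-23677699 (minus strand) for Tnfrsf12a, chr3:95658471-95658720 (plus strand) for Mcl1, chr6:120916825-120917074 (minus strand) for Bid, and chr2:152830718-152830967 (minus strand), which is 1 of 3 start site windows, for Bcl2l1.
Tnfrsf12a: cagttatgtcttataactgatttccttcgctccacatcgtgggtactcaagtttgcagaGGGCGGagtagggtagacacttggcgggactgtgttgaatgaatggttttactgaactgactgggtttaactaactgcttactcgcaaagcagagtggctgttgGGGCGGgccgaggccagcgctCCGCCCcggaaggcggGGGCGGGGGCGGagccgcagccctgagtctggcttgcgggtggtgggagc
Mcl1: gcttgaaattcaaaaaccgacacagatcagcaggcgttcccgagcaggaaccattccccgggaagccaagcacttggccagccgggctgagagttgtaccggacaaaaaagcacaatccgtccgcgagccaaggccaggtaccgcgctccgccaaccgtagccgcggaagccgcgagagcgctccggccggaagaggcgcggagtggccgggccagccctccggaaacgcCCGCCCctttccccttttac
Bid: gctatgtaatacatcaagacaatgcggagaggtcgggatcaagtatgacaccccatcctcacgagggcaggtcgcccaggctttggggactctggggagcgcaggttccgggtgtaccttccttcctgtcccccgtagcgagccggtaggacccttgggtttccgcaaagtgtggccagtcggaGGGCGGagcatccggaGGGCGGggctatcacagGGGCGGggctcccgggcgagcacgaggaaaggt
Bcl2l1: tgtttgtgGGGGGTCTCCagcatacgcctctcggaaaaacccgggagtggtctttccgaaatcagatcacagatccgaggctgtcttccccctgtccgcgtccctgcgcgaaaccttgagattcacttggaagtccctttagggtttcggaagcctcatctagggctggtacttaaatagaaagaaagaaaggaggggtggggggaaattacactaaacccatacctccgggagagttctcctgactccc
The 4 windows have no motif in common among the 7 searched. The Tnfrsf12a window holds 5 GC boxes, from 191 to 44 bases before the start, the Bid window 3 and the Mcl1 window 1, while the 3 Bcl2l1 windows hold 0. Fas, Bax and all 3 windows of Bbc3 hold GC boxes too. A GC box stands in 32.7% of all 32851 windows of this length. The NF-kB match in Bcl2l1 starts 242 bases before the start site, and neither of the other windows of Bcl2l1 holds one. Of all windows, counted singly, 7.25% hold a match. Among the other members, Fas holds the AP-1 letters TGANTCA and the STAT letters TTCNNNGAA, which stand in 6.75% and 7.02% of windows, Tnfrsf1a holds a STAT match, and Bbc3 holds an NF-kB match in 1 of its 3 windows. The p53 half-site, held by 7.13% of windows, was matched in the Bax window. The CRE letters TGACGTCA (1.55% of windows) and the serum response CArG box (1.47%) were matched in no member window. A match describes letters only, and no binding was measured.

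In liver at 24 h, 4 of the 8 tested members were higher than in sham and 0 were lower: the receptor Tnfrsf12a, both guardians Bcl2l1 and Mcl1, and the BH3-only gene Bid. Over all 12071 liver genes tested, 17.9% were higher and 15.0% lower at 24 h. The median difference of the 8 members was 1.02, against 0.0048 over all genes. Because the members were chosen with earlier results of these data known, neither contrast is independent evidence of a direction. The count of 4 fell to 3 when sham A, 24 h A or 24 h B was left out, each through Bid (adjusted p 0.0573 to 0.0590), and rose to 6 without 48 h C, as Tnfrsf1a and Bbc3 passed. With the mean of a gene's probe sets it was 2, without Mcl1 and Bid. The rank product test, which the study names, called 1 of the 8, Tnfrsf12a. By 48 h in liver, 1 member, Tnfrsf12a, was above sham, where 6.24% of genes were higher and 3.94% lower. Between 24 h and 48 h, 5 members fell in liver (13.1% of all genes fell): Tnfrsf12a, Tnfrsf1a, Bcl2l1, Mcl1 and Bid.

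**Figure D1:**
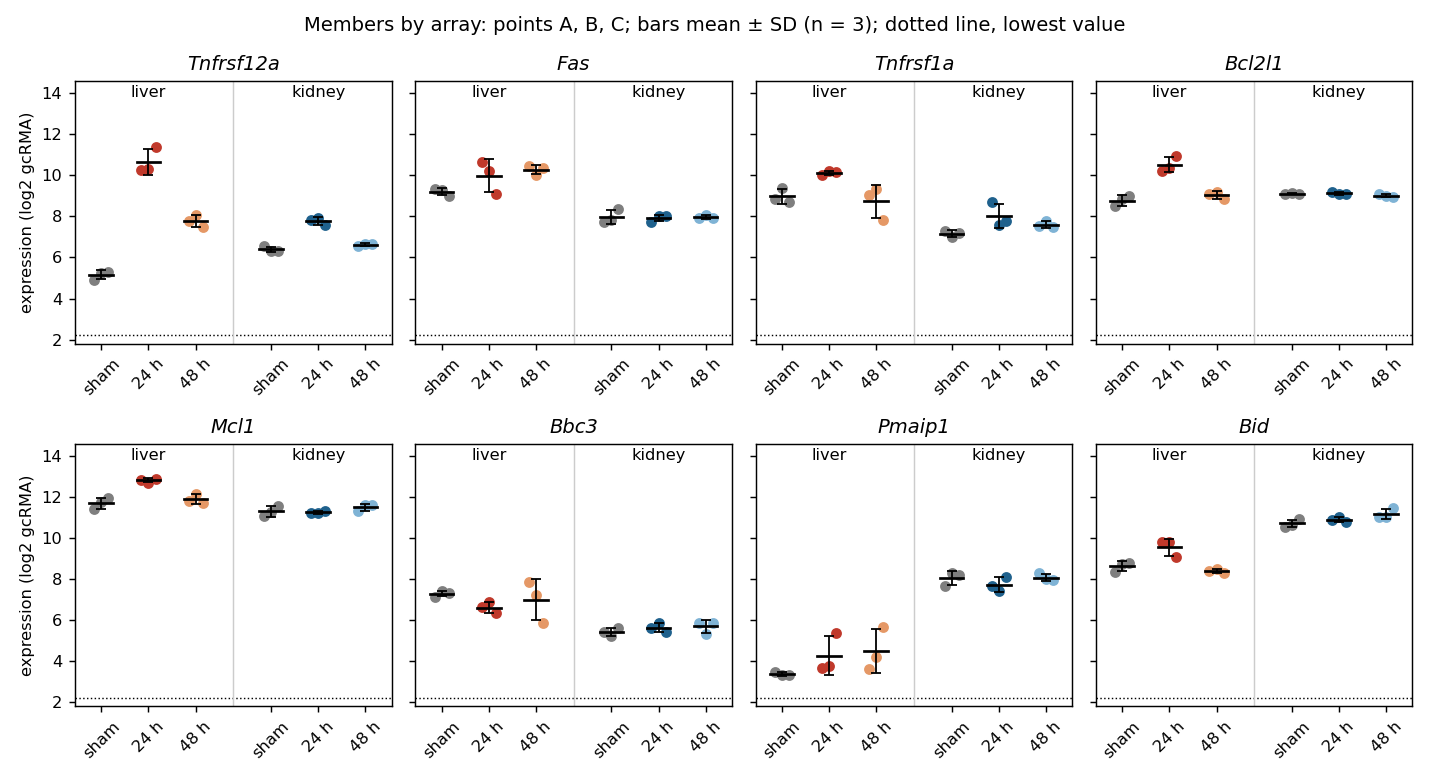
Log2 gcRMA level of the 8 tested members on each array, by tissue and group; points are arrays A, B and C from left to right, bars the mean ± SD (n = 3), and the dotted line the lowest value of the table. Tnfrsf12a in liver moves from a mean of 5.15 in sham to 10.66 at 24 h and 7.78 at 48 h, and Pmaip1 lies near 8 in kidney but between 3.34 and 5.68 in liver.

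Tnfrsf12a (Fn14) is the receptor for the cytokine TWEAK, encoded by Tnfsf12, and lacks a death domain of its own. In sham liver it read 4.90, 5.25 and 5.30 on arrays A, B and C. At 24 h the readings were 10.27, 10.31 and 11.39, and at 48 h 7.78, 8.05 and 7.50. The 3 liver groups did not overlap, with 24 h highest and 48 h between. The difference from sham was 5.51 ± 0.32 (SE) at 24 h, a 45.5-fold rise (95% interval 4.75 to 6.27 on the log2 scale, adjusted p = 1.09e-04, limma). At 48 h it was 2.63 ± 0.32, a 6.18-fold rise (adjusted p = 0.00687). From 24 h to 48 h it fell by 2.88 ± 0.32 (adjusted p = 0.00121). No single array, when left out, removed any of these 3 liver calls, and the rank product test made them too.

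Tnfrsf12a was also the sole tested member called in kidney. Sham kidneys read 6.54, 6.32 and 6.32, above the sham livers in this probe set only, and the 24 h kidneys 7.83, 7.93 and 7.56. The 48 h kidneys read 6.54, 6.66 and 6.66, and array A of that group had the same reading as sham A. All 3 sham readings recur exactly in another array, and such readings were taken as uncertain background. The fold is therefore given as a lower bound. The SE and intervals against sham may be too narrow, and the adjusted p too low. The 24 h difference was 1.38 ± 0.11, at least 2.60-fold (interval 1.11 to 1.65, adjusted p = 0.0101, limma), and was called whichever array was left out (adjusted p 0.0108 to 0.0496). At 48 h the difference from sham was 0.22 (interval -0.05 to 0.50, adjusted p = 0.346). The fall of 1.15 ± 0.11 from 24 h to 48 h (adjusted p = 0.0190) lost its call without 48 h A, B or C (adjusted p 0.0787, 0.0611 and 0.0532).

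The second probe set of Tnfrsf12a gave 5.27 ± 0.49 in liver at 24 h (adjusted p = 5.26e-04 over all probe sets) and 1.05 ± 0.17 in kidney (adjusted p = 0.0278). Its sham readings overlapped between kidney (3.77 to 4.14) and liver (2.66 to 4.14). Its 48 h liver difference of 1.51 ± 0.49 did not pass (adjusted p = 0.120). The size of the 48 h rise in liver is therefore known less well than that of the 24 h rise.

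Fas, the receptor of Fas ligand, read 9.34, 9.27 and 9.0 in sham liver. At 24 h it read 10.67, 10.21 and 9.10, and at 48 h 10.46, 10.02 and 10.36. Arrays A and B of 24 h lay above all sham arrays and array C within them, whereas all 3 arrays of 48 h lay above sham. The differences were 0.79 ± 0.38 at 24 h (interval -0.10 to 1.67, adjusted p = 0.156) and 1.07 ± 0.38 at 48 h (interval 0.19 to 1.96, adjusted p = 0.127), and neither was called. In 1 fit of all 18 arrays both were called (adjusted p = 0.0467 and 0.0202). Without 24 h C, the 24 h difference was 1.23 (adjusted p = 0.00937) and the 48 h difference was called as well (adjusted p = 0.0256). In kidney Fas lay between 7.73 and 8.35 on all 9 arrays, with differences of -0.05 at 24 h (interval -0.45 to 0.35) and 0.01 at 48 h (interval -0.40 to 0.41).

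Tnfrsf1a (TNFR1), the main death domain receptor of TNF, read 8.86, 9.36 and 8.70 in sham liver and 10.03, 10.21 and 10.16 at 24 h. Its 48 h livers read 9.04, 9.36 and 7.81, back over the range of sham, with array C below it. The 24 h difference of 1.16 ± 0.39 missed the threshold (interval 0.24 to 2.07, adjusted p = 0.0586), and it passed without 48 h C (adjusted p = 0.00496) or without 48 h B (adjusted p = 0.0450). It also passed with a stricter filter, quantile normalization, median centring, the array letter as a block or 1 fit of all 18 arrays (adjusted p 0.0145 to 0.0498). The fall of 1.40 ± 0.39 from 24 h to 48 h was called (adjusted p = 0.0352) but lost the call on leaving out any of sham A, sham C, 24 h A, 24 h B, 24 h C or 48 h A (adjusted p 0.0508 to 0.0928), with no filter (0.0646) or by rank product (0.223). In kidney the sham arrays read 7.31, 6.99 and 7.17, and the 24 h arrays 8.70, 7.59 and 7.76, all above sham. That difference of 0.86 ± 0.28 was not called (interval 0.19 to 1.52, adjusted p = 0.123), nor was 0.45 ± 0.28 at 48 h (adjusted p = 0.452).

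Bcl2l1, whose main protein Bcl-xL guards the mitochondrial membrane, read 8.50, 8.83 and 8.99 in sham liver and 10.23, 10.38 and 10.92 at 24 h. At 48 h it read 9.08, 9.20 and 8.85. The 24 h livers stood above both other groups, whose ranges overlapped. It rose by 1.74 ± 0.22, 3.34-fold, at 24 h (interval 1.23 to 2.25, adjusted p = 0.00124) and fell by 1.47 ± 0.22 by 48 h (adjusted p = 0.00307). At 48 h the difference from sham was 0.27 (interval -0.23 to 0.78, adjusted p = 0.488). In kidney the 9 arrays ran from 8.96 to 9.22, and the 24 h difference was 0.03 (interval -0.11 to 0.17). Of these kidney readings, 2 in sham and 2 at 24 h were exactly the same value, 9.09. Such readings were taken as uncertain background, so this interval may be too narrow. Set 1420887_a_at, with 0 recurring kidney readings, gave 0.02 (interval -0.23 to 0.26). Both other probe sets of Bcl2l1 above the floor were also higher in liver at 24 h, by 1.40 ± 0.34 (adjusted p = 0.0204) and 1.24 ± 0.60 (adjusted p = 0.170).

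Mcl1, the short-lived guardian, read 11.40, 11.77 and 11.93 in sham liver. It read 12.85, 12.70 and 12.90 at 24 h and 11.80, 12.16 and 11.71 at 48 h, so that again only the 24 h group stood apart. It rose by 1.11 ± 0.17, 2.16-fold, at 24 h (interval 0.71 to 1.51, adjusted p = 0.00296) and fell by 0.93 ± 0.17 by 48 h (adjusted p = 0.00721). The kidney arrays ran from 11.08 to 11.62, with a 24 h difference of -0.05 (interval -0.37 to 0.28).

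The probe sets of Mcl1 did not move together. In liver at 24 h, set 1448503_at (the one used above) and set 1416881_at rose, the latter by 1.42 ± 0.20 (adjusted p = 0.00227). The 4 other sets had differences of -0.48 (adjusted p = 0.156), -0.43 (adjusted p = 0.333), -0.42 (adjusted p = 0.240) and -0.21 (adjusted p = 0.348). Averaged over all 6 sets, the difference was 0.17 and was not called (adjusted p = 0.534). In kidney, set 1456381_x_at fell by 0.49 ± 0.09 at 24 h (adjusted p = 0.0346), whereas the set used above was not called. The rise of Mcl1 in liver thus belongs to 2 of its 6 probe sets, and which transcripts each set reads was not analysed here.

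**Figure D2:**
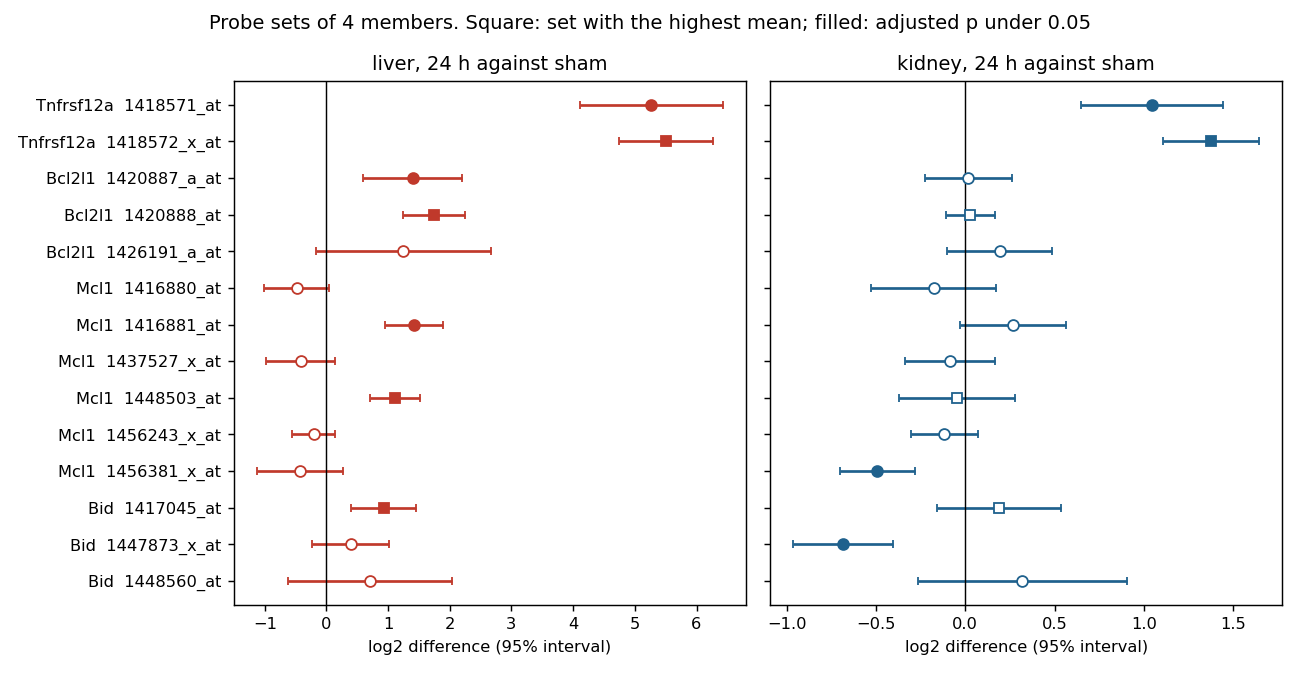
Log2 difference between 24 h and sham for each probe set above the floor of Tnfrsf12a, Bcl2l1, Mcl1 and Bid, with 95% intervals, in liver (left) and kidney (right, on a narrower axis); squares are the set that stands for the gene and filled symbols have an adjusted p under 0.05. All sets of Tnfrsf12a, Bcl2l1 and Bid lie above 0 in liver, while 4 of the 6 Mcl1 sets lie below 0.

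Bid, the BH3-only protein that links death receptors to mitochondria, read 8.35, 8.75 and 8.80 in sham liver. It read 9.80, 9.80 and 9.08 at 24 h and 8.40, 8.52 and 8.31 at 48 h. All 24 h arrays lay above sham, array C by the least, and the 48 h arrays lay over the low end of sham. The rise of 0.92 ± 0.22 at 24 h was 1.90-fold (interval 0.40 to 1.45, adjusted p = 0.0180). It lost its call without sham A (adjusted p = 0.0573), 24 h A (0.0573) or 24 h B (0.0590), and with the mean of its 3 probe sets (0.67, adjusted p = 0.124). Neither other set was called in liver at 24 h, at 0.39 (adjusted p = 0.332) and 0.70 (adjusted p = 0.404). In the set used, the fall of 1.15 ± 0.22 from 24 h to 48 h was called (adjusted p = 0.00891). Bid was read higher in kidney than in liver in every group, at 10.57, 10.64 and 10.93 in sham, 10.89, 11.04 and 10.77 at 24 h, and 11.05, 11.04 and 11.45 at 48 h. All 3 kidneys of 48 h lay above all sham kidneys, but the difference of 0.47 ± 0.15 was not called (interval 0.12 to 0.82, adjusted p = 0.140). The other set 1447873_x_at fell by 0.68 ± 0.12 in kidney at 24 h (adjusted p = 0.0314), against 0.19 (interval -0.16 to 0.53) for the set used, so the kidney direction of Bid differs between its sets.

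Bbc3 read 7.15, 7.40 and 7.31 in sham liver, 6.62, 6.88 and 6.33 at 24 h, and 7.84, 7.24 and 5.88 at 48 h. The 24 h livers all lay below sham, and the 48 h livers spread beyond the range of both other liver groups at each end. The reading of 48 h liver C, 5.88, recurs exactly in 48 h kidneys A and C. Such readings were taken as uncertain background. The 24 h difference of -0.68 ± 0.46 was not called (interval -1.76 to 0.41, adjusted p = 0.313). Without 48 h C, the lowest array of that group, the same difference was called (adjusted p = 0.0478), as were the difference of 0.93 between 48 h and 24 h (adjusted p = 0.0308) and the difference between the organs at 24 h, 0.88 (adjusted p = 0.0328, against 0.222 with that array). Kidney arrays ran from 5.22 to 5.88, with differences of 0.20 at 24 h (interval -0.25 to 0.65) and 0.28 at 48 h (interval -0.17 to 0.73).

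Pmaip1 was read lower in liver than in kidney on every array. Sham livers read 3.49, 3.34 and 3.34, while sham kidneys read 7.68, 8.28 and 8.21. The 24 h livers read 3.69, 3.75 and 5.37 and the 48 h livers 3.60, 4.21 and 5.68, so all 6 lay above sham, with array C highest at both times. The differences of 0.88 ± 0.62 and 1.11 ± 0.62 were not called (adjusted p = 0.328 and 0.320), with intervals from -0.57 to 2.34 and from -0.35 to 2.56. Kidney differences were -0.33 at 24 h (interval -0.87 to 0.22) and 0.02 at 48 h (interval -0.52 to 0.57).

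**Figure D3:**
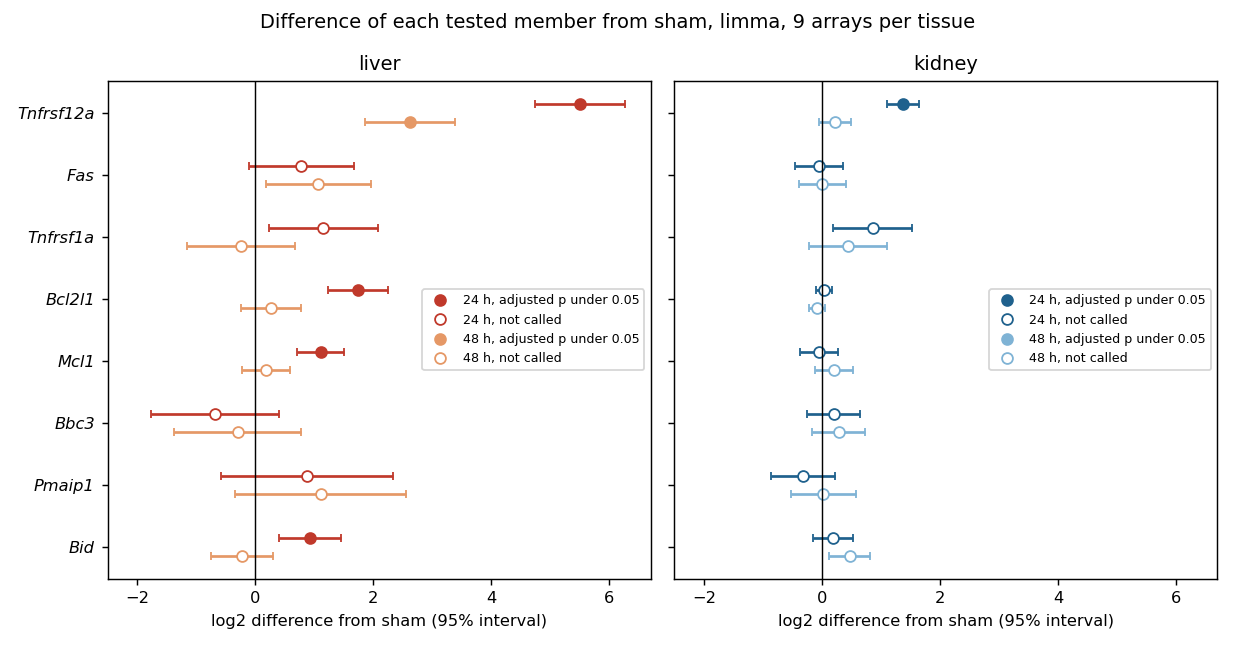
Log2 difference from sham of each tested member in liver (left) and kidney (right), with 95% intervals from limma; filled symbols have an adjusted p under 0.05. In liver at 24 h Tnfrsf12a (5.51), Bcl2l1 (1.74), Mcl1 (1.11) and Bid (0.92) were called, and in kidney Tnfrsf12a alone (1.38).

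In kidney as a whole, 1 of 8 members was higher at 24 h and 0 were lower, where 2.21% of 12003 genes were higher and 3.10% lower. At 48 h 0 of 8 were called by limma, where 2.69% of genes were called. At an unadjusted p under 0.05 that count was 1 (Bid), and the rank product test also called 0. From 24 h to 48 h 1 of 8 fell, Tnfrsf12a, where 0.650% of genes fell. A member that misses the threshold in kidney is not thereby shown to be unchanged, and the intervals above bound what it could be.

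The response of the tissues was compared directly, as the kidney difference from sham minus the liver difference, over 12412 genes. The 18 arrays were taken as independent, and whether a letter names the same mouse in both organs is not given in the sources used here. At 24 h this differed for 3 of the 8 members, where 30.5% of all genes differed: Tnfrsf12a by -4.13 ± 0.35 (adjusted p = 2.46e-06), Bcl2l1 by -1.71 ± 0.23 (adjusted p = 9.73e-05) and Mcl1 by -1.16 ± 0.23 (adjusted p = 0.00154). Tnfrsf12a rose in both organs, and by more in liver. For Bid the difference of -0.74 ± 0.27 did not pass (interval -1.33 to -0.15, adjusted p = 0.0559). It passed when arrays of the same treatment and letter were taken as 1 animal (adjusted p = 0.0413). Of the other Bid sets, 1447873_x_at was called at -1.07 (adjusted p = 0.0165 over all probe sets). Set 1448560_at, at -0.38, was not (adjusted p = 0.708). For Tnfrsf1a the difference between the tissues was -0.30 ± 0.49 (interval -1.36 to 0.76, adjusted p = 0.695). At 48 h it was called for Tnfrsf12a only, at -2.40 ± 0.35 (adjusted p = 8.81e-04), where 13.2% of all genes differed. The second probe set of Tnfrsf12a gave -1.42 at 48 h and was not called (adjusted p = 0.110 over all probe sets), and gave -4.22 at 24 h (adjusted p = 6.72e-05). Without liver 24 h C the count at 24 h was 5, as Fas (-1.28, adjusted p = 0.00395) and Bid (-0.98, adjusted p = 0.00542) passed, and at 48 h it was 3, with Fas at -1.07 (adjusted p = 0.0168) and Bid at 0.69 (adjusted p = 0.0446).

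Other genes of the pathway were taken from lists of the receptor family, ligands, receptor complexes, BCL2 relatives, caspases and the p53 axis. Of 13 receptors of the TNF family, 9 were tested in liver, and 3 rose and 1 fell at 24 h, where 17.9% of all genes rose and 15.0% fell. Besides Tnfrsf12a, these were Tnfrsf11b (osteoprotegerin, a decoy receptor), higher by 1.57 ± 0.23 (adjusted p = 0.00257), Tnfrsf21 (DR6), at least 4.10-fold higher (adjusted p = 0.0455), and Tnfrsf19, at least 3.95-fold lower (adjusted p = 0.00338). Tnfrsf11b was still 2.09 ± 0.23 above sham at 48 h (adjusted p = 0.00536), and Tnfrsf19 at least 3.49-fold below it (adjusted p = 0.0166). Among 8 ligands, 3 were tested and 0 were called by limma at either time in liver (0 at an unadjusted p under 0.05, and 0 by rank product). Tnf, Fasl, Lta and Tnfsf9 were at the floor in sham, 24 h and 48 h liver, and Tnfsf12 was not analysed here.

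Of the receptor complex and NF-kB list, 12 genes were tested in liver, and 2 rose and 2 fell at 24 h, near the shares of all genes (17.9% and 15.0%). Mlkl, the executor of necroptosis, was at least 6.88-fold higher (adjusted p = 0.0102) and at least 9.45-fold at 48 h (adjusted p = 0.0177). The adaptor Traf2 was at least 1.86-fold higher (adjusted p = 0.00174). The caspase inhibitor Xiap fell by 1.21 ± 0.11 (adjusted p = 4.76e-04), and Cflar (c-FLIP), which blocks caspase-8 activation at the receptor, fell by 1.13 ± 0.32 (adjusted p = 0.0334). At 48 h Xiap was still below sham, with a difference of -0.69 ± 0.11 (adjusted p = 0.0143).

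Of the BCL2 family outside the members, Bmf, a BH3-only gene, was at least 7.30-fold lower in liver at 24 h (adjusted p = 7.30e-04) and at least 4.79-fold lower at 48 h (adjusted p = 0.00817). Of all liver genes tested, 17.9% rose and 15.0% fell at 24 h, and 6.24% rose and 3.94% fell at 48 h. Among 8 BH3-only genes tested, 1 rose (Bid) and 1 fell (Bmf) at 24 h. Among 4 guardians tested, Bcl2l1 and Mcl1 rose and 0 fell. Of 2 effectors tested, 0 were called at 24 h (1 at an unadjusted p under 0.05, 0 by rank product), and Bok was higher at 48 h by 1.62 ± 0.41 (adjusted p = 0.0497). Of 3 other relatives tested, Bcl2l13 was higher at 48 h by 1.05 ± 0.19 (adjusted p = 0.0175). Between 24 h and 48 h the BH3-only genes Bad and Bik rose by 1.30 ± 0.34 (adjusted p = 0.0265) and 1.82 ± 0.50 (adjusted p = 0.0328) while Bid fell.

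Of 12 tested genes of the apoptosome and caspase list, 2 rose and 2 fell in liver at 24 h, again near the shares of all genes (17.9% and 15.0%). Apaf1, the scaffold of the apoptosome, was at least 6.29-fold higher at 24 h (adjusted p = 2.24e-04), and its sham and 48 h groups both lay at the floor, where levels have no order. Casp2 was at least 2.84-fold higher (adjusted p = 0.0146). Casp9, the caspase that Apaf1 activates, fell by 1.38 ± 0.20 (adjusted p = 0.00253), and Dffa, the inhibitor of the caspase-activated nuclease, by 0.40 ± 0.10 (adjusted p = 0.0182). At 48 h Diablo, a mitochondrial antagonist of caspase inhibitors, was above sham by 0.92 ± 0.18 (adjusted p = 0.0237). In kidney, cytochrome c (Cycs) differed from sham by -0.18 ± 0.04 at 24 h (adjusted p = 0.0479) and by -0.44 ± 0.04 at 48 h (adjusted p = 0.00787), and was called lower at both times.

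Among 10 tested genes of the p53 axis, 8 rose and 0 fell in liver at 24 h, with a median difference of 2.93. Of all liver genes, 17.9% rose and 15.0% fell. The cell cycle inhibitor Cdkn1a was at least 142.9-fold higher (adjusted p = 7.74e-04), Phlda3 at least 39.3-fold (adjusted p = 4.69e-05) and the nuclease Aen at least 26.6-fold (adjusted p = 8.43e-05). Bbc3 and Pmaip1, also known as p53 targets but counted in the BH3-only list and not among these 10, were not called, at -0.68 and 0.88. They do not stand for all p53 targets outside the 10, which were not gathered as a list. At 48 h 5 of the 10 were above sham, where 6.24% of all liver genes were higher. Cdkn1a was higher by at least 12.3-fold (adjusted p = 0.0298), Aen by at least 3.71-fold (adjusted p = 0.00758) and Phlda3 by at least 2.46-fold (adjusted p = 0.0176). In kidney 1 of 10 was higher at 24 h, Aen, by 0.79 ± 0.17 (adjusted p = 0.0462), and 1 at 48 h, Sesn2, by 1.21 ± 0.19 (adjusted p = 0.0314). Of all kidney genes, 2.21% were higher at 24 h, and 2.69% were called in either direction at 48 h. At an unadjusted p under 0.05 (limma, either direction) the 24 h kidney count was 6 of 10, against 2855 of 12003 genes. The median difference of the 10 was 0.28, and the rank product test called 0. At 48 h the unadjusted count was 1 of 10, against 2327 of 12003. The lists were drawn up with earlier results of these arrays known, so their counts are not independent evidence of a direction.

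**Figure D4:**
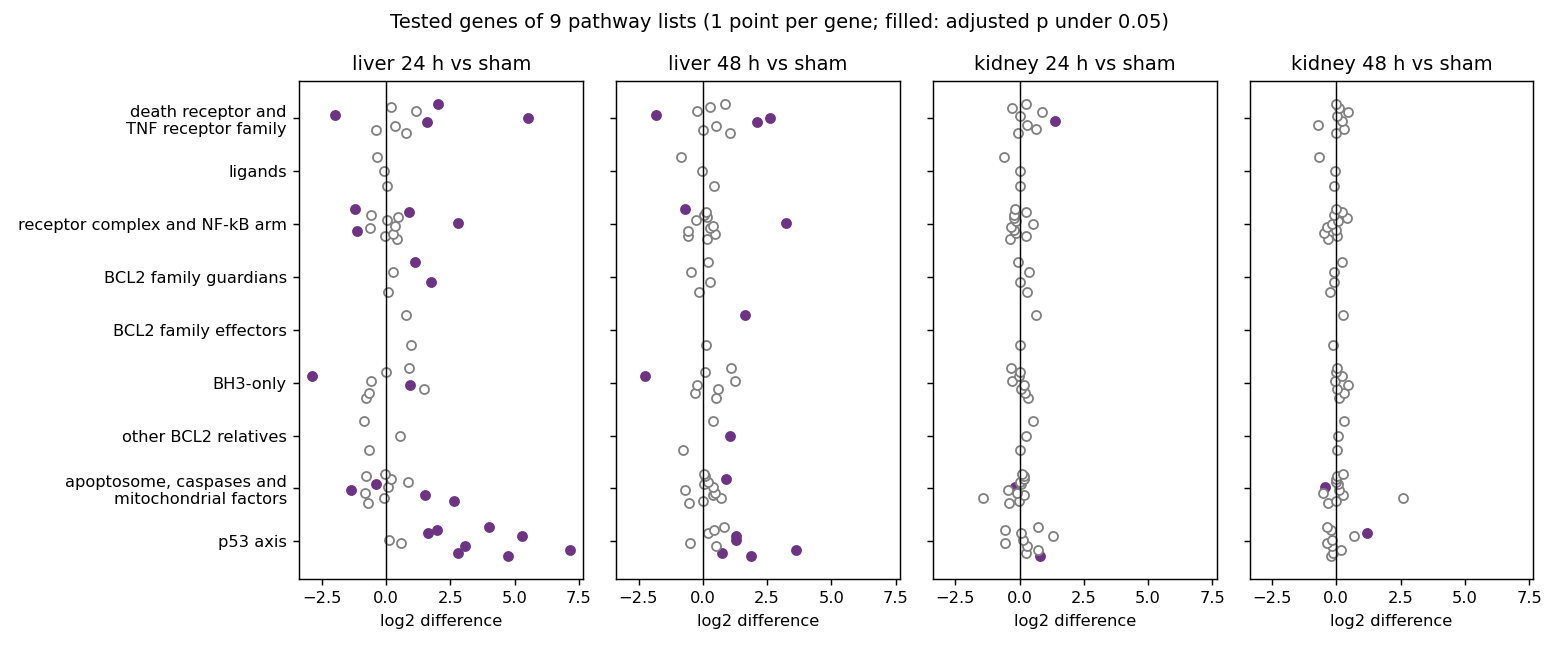
Log2 difference from sham of every tested gene of the 9 pathway lists in liver and kidney at 24 h and 48 h; filled points have an adjusted p under 0.05. In liver at 24 h the largest differences are those of Cdkn1a of the p53 axis (7.16) and the receptor Tnfrsf12a (5.51), and the kidney panels hold 3 called genes at 24 h (Tnfrsf12a, Cycs and Aen) and 2 at 48 h (Cycs and Sesn2).

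Markers of some other cell types were also higher in liver at 24 h, where 17.9% of all genes were higher and 15.0% lower. These were 5 of 10 macrophage, 7 of 10 endothelial, and 3 of 7 stellate and fibroblast markers. Between 24 h and 48 h, limma called 0 of the 10 macrophage and 0 of the 10 endothelial markers, where 13.1% of all genes fell. At an unadjusted p under 0.05 these counts were 1 and 2, and the rank product test called 0. Of the 7 stellate and fibroblast markers, 1 fell. The summed macrophage level was 12.81 to 13.43 in sham, 14.30 to 14.46 at 24 h and 13.95 to 14.19 at 48 h (log2 of the sum), and the endothelial level 10.79 to 11.11, 11.54 to 12.46 and 11.38 to 11.69. Of 7 hepatocyte markers 0 were called by limma at 24 h (2 at an unadjusted p under 0.05, 0 by rank product). At 48 h 1 of 7 was lower than sham, where 3.94% of all genes were lower (3 at an unadjusted p under 0.05, 0 by rank product). Their summed level was 18.44 to 18.48 in sham, 18.30 to 18.39 at 24 h and 18.09 to 18.32 at 48 h. Of 7 neutrophil markers 5 were at the floor in sham liver and 4 at 24 h, and 6 of 8 T and NK cell markers, Cd3e, Cd3d and Cd3g among them, were at the floor in all groups. In kidney, limma called 0 of the 8 macrophage and 10 endothelial markers tested, at 24 h (0 at an unadjusted p under 0.05) and at 48 h (1, a macrophage marker), and the rank product test called 0. Of all kidney genes tested, 2.21% were higher and 3.10% lower at 24 h, and 2.69% were called at 48 h. Other kidney lists held called markers at 24 h. Of 3 injured tubule markers tested Lcn2 rose, at least 27.1-fold (adjusted p = 0.0225), while Havcr1 and Krt20 were at the floor in sham and at 24 h. The summed injured tubule level was 5.70 to 6.39 in sham kidney, 8.17 to 9.48 at 24 h and 6.46 to 7.74 at 48 h. The median difference of the 3 tested markers was -0.06 at 24 h, so the higher sum at 24 h is that of Lcn2 and not of the list. Of 7 distal nephron markers Scnn1a rose and Atp6v0d2 fell, and 1 of 7 proximal tubule markers (Aqp1) and 1 of 5 cholangiocyte markers (Krt7) rose. The part of these cells in the differences of Tnfrsf12a, Bcl2l1, Mcl1 and Bid was not tested.

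Genes with the pattern most like each member were ranked by Pearson r over the 18 arrays among the 11655 genes that passed the filter in both tissues. These arrays split into liver and kidney, so that a gene that differs between the organs reaches a high r from that split alone. Tnfrsf12a was most like Aen (r = 0.963), Mcts2 (0.963) and Snhg10 (0.947). Bcl2l1 was most like Tut1 (0.981), Lrrc14 (0.980) and Cops8 (0.974), and Mcl1 most like Mphosph8 (0.952), Eloa (0.951) and Mapk6 (0.948). Bid was most like Ube2d1 (0.975), Ctsa (0.974) and Vipas39 (0.972), and Pmaip1 most like Plat (0.985), Cep19 (0.981) and Gpr137b-ps (0.979). Fas was most like Zfand5 (0.953), Ccnf (0.951) and Cfp (0.951), Tnfrsf1a most like Tap1 (0.960), Dad1 (0.948) and Sdc3 (0.947), and Bbc3 most like C2cd2 (0.964), Mcc (0.935) and Rcbtb1 (0.930).

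Ordered by mean level, Tnfrsf12a ran from sham liver (5.15) through sham kidney (6.40) and 48 h kidney (6.62) to 24 h kidney (7.77). Above these came 48 h liver (7.78) and 24 h liver (10.66). The neighbours sham and 48 h kidney, and 24 h kidney and 48 h liver, overlapped. The order of sham liver and sham kidney is uncertain, because the sham kidney readings recur exactly and the second probe set overlapped there. Mcl1 ran from 11.25 in 24 h kidney to 12.81 in 24 h liver, with the 5 groups below 24 h liver overlapping in a chain. Bid and Pmaip1 had all kidney arrays above all liver arrays, and Fas all liver arrays above all kidney arrays. Bbc3 was also higher in liver than in kidney on every array except liver 48 h C, which at 5.88 equalled 2 arrays of 48 h kidney.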

How the data were processed

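RNA from liver and kidney was hybridised to Affymetrix mouse genome arrays, 18 in all, per the labels. The authors deposited log2 values that they computed with gcRMA, per the series' design text and the submitters' processing notes, whose version is not stated. The values were used as deposited. Of 45101 probe sets, 34945 are annotated to 1 gene, 932 to several and 9160 to none, and 64 are control sets. The Entrez identifier of 34741 sets was found in the RefSeq gene table, and 0 symbols changed.

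Genes entered the test for a tissue when they lay above the array median in at least 3 of the 9 arrays. limma (version 3.58.1, R 4.3.3, intensity trend on) was fitted to the 9 arrays of a tissue, with groups from the labels, and to all 18 arrays for the difference between tissues, with Benjamini-Hochberg adjusted p under 0.05 called. The steps were tested on simulated data. A group with all 3 arrays less than 1 above the lowest value was at the floor. A fold is a lower bound where the other group holds a value that low or a reading that recurs exactly in another array of the set.

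All 10 members were described. From each list, up to 3 called genes per direction and comparison with sham with the largest difference, members aside, were named, and for each member the 3 genes with the highest Pearson r. Counts between 48 h and 24 h in the lists, and Bad, Bik and the marker genes named, were chosen after their values were seen, as was the GC box among the motifs. The members and lists were chosen with earlier results of these data known. Alternatives were no filter, a filter at percentile 60, the mean of probe sets, quantile normalization, median centring, no trend, 1 fit of all 18 arrays, the array letter as a block, rank product (9 pairwise ratios, 100 permutations) and leaving out each array, and, chosen after seeing the data, a block of treatment and letter across both tissues. Scan dates and batches were not analysed here.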

Additional observations from a re-analysis of the deposited data

Results flagged for a closer look

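The response of kidney and liver to GalN differed by a test of the difference itself (limma, a contrast in the fit of all 18 arrays) for 3 of 8 members at 24 h, where 30.5% of all genes differed, and 1 of 8 at 48 h, where 13.2% did. Tnfrsf12a differed by -4.13 at 24 h (adjusted p = 2.46e-06) and by -2.40 at 48 h (adjusted p = 8.81e-04), the latter not called in its second probe set (-1.42, adjusted p = 0.110). Bcl2l1 differed by -1.71 at 24 h (adjusted p = 9.73e-05), with a kidney interval of -0.11 to 0.17 around 0. That interval rests in part on kidney readings that recur exactly, so it may be too narrow. Mcl1 differed by -1.16 at 24 h (adjusted p = 0.00154), a value that became -0.27 (adjusted p = 0.358) with the mean of its 6 probe sets. In each case the liver difference was the larger.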

How the results depend on the processing

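Of the 16 calls made for members, 13 held in every fit that left out 1 array. Across 1280 values of members under the alternatives, 0 were called in the opposite direction, 25 lost a call and 19 gained one. Only values of the 16 called results could lose a call, and only values of uncalled results could gain one. The 1280 values are therefore the base of neither count. Median centring subtracted a shift of -0.29 to 0.14 from single arrays. Members called in liver at 24 h numbered 4, against 2 with the mean of probe sets, 1 by rank product and 3 to 6 with an array left out. At 48 h they numbered 1, against 2 in 1 fit of all 18 arrays and 1 to 2 with an array left out. From 24 h to 48 h they numbered 5, against 1 by rank product and 4 to 6 with an array left out. In kidney the 1 call between 48 h and 24 h was lost (0) with the array letter as a block, and the count was 0 to 1 with an array left out. For the difference between tissues, leaving out an array gave 3 to 5 members at 24 h and 1 to 3 at 48 h.

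The count of all genes called depended more on the setting. In liver at 24 h it was 3966, against 600 by rank product and 2834 to 4652 with an array left out. In liver at 48 h it was 1228, against 769 with no filter, 605 with the replicate block, 2515 with all 18 arrays, 299 by rank product and 448 to 1599 with an array left out. Between 48 h and 24 h it was 3355, against 471 by rank product and 2581 to 3466. In kidney at 24 h it was 637, against 285 with no filter, 143 with the replicate block, 376 with all 18 arrays, 172 by rank product and 15 to 669 with an array left out. In kidney at 48 h it was 323, against 131, 49 and 201 under the first 3 of these and 29 to 469. In kidney between 48 h and 24 h it was 193, against 64 with no filter, 328 with centring, 4 with the block and 1 to 162. Between tissues it was 3781 at 24 h (3176 to 4442) and 1637 at 48 h (1142 to 2079). Within a tissue the array letter was not taken to pair the samples, since same-letter correlations were -0.11 to 0.08 in liver, and -0.12 to 0.23 in kidney with 1 of 9 over 0.1. Between liver and kidney of the same treatment they were -0.07 to 0.27, with 2 of 9 over 0.1 (both in sham), and letters that differ gave -0.26 to 0.07. Taking such arrays as 1 animal, a replicate block chosen after seeing the data, gave 4 members at 24 h, with Bid added, and 1 at 48 h. The cause of these changes was not tested.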

Other observations

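Array C of the 24 h livers stood at opposite ends for different members. Within its group it was highest for Tnfrsf12a (11.39), Bcl2l1 (10.92), Mcl1 (12.90) and Pmaip1 (5.37) and lowest for Fas (9.10), Bid (9.08) and Bbc3 (6.33). Array C of the 48 h livers was the lowest of its group for 6 of the 8 tested members, Tnfrsf12a (7.50), Tnfrsf1a (7.81), Bcl2l1 (8.85), Mcl1 (11.71), Bbc3 (5.88) and Bid (8.31), and the highest for Pmaip1 (5.68). Its median over readings above the floor differed from the mean of all arrays by -0.29, the lowest of the 18. Whether the letter ties these arrays to each other is not given in the sources used here.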
